A study of Homo sapiens with 12 samples.

Results

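Gene expression was compared between Huh-7 cells without METTL5 and wild-type Huh-7 cells. Huh-7 is an established line from a human hepatocellular carcinoma and still expresses many hepatocyte genes. The comparison takes 6 of the 12 libraries of the series: 3 from wild-type cells labelled as untreated, and 3 from cells of the genotype METTL5-KO, which were infected with a guide RNA (sgRNA) against METTL5. No library of any other line enters. The labels name no control guide, no clone and no infection of the wild-type cells, so loss of METTL5, the infection and any selection of cells cannot be told apart. Nor do they name a batch or say that the replicates came from separate cultures, so p-values reflect library-to-library spread alone, and that spread may be technical. If the knockout and wild-type libraries were prepared apart, that difference and the genotype cannot be told apart.

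METTL5 is a methyltransferase that places an N6-methyladenosine (m6A) mark on the 18S RNA of the small ribosomal subunit, close to the decoding centre. TRMT112, a small protein that also partners other methyltransferases of RNA and of translation factors, stabilises it. The enzyme is studied mainly for its part in translation, and liver cancer cells are among the cells in which its loss has been examined. The question put to these libraries was which mRNAs differ in level when METTL5 is gone.

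METTL5 (ENSG00000138382; GRCh38 chromosome 2, 169810081 to 169824931, minus strand) had 237, 258 and 169 counts in the wild-type libraries and 0 in each of the 3 knockout libraries. The wild-type level was 6.79 ± 1.13 CPM (SD, n = 3), where CPM is the TMM-scaled count relative to library size. Against a floor of 3 counts per library it was at least 27.8-fold lower in knockout, a limit that covers counting error only. Its annotation overlaps SSB. Wild-type libraries each held 100 or more counts for 9175 genes, of which 2 had none in any knockout library: METTL5 and FMC1-LUC7L2, a readthrough annotation that overlaps FMC1 and LUC7L2. The partner TRMT112 went from 176, 192 and 166 CPM in wild type to 769, 774 and 702 CPM in knockout, with no overlap. Its log2 fold change was 2.07 (SE 0.07, edgeR adjusted p = 2.45e-15). TRMT112 overlaps ESRRA, and the strand setting of the authors' counting is not given in the sources used here, so reads of overlapping genes cannot be told apart. This holds for each gene below that is said to overlap another.

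The libraries differed in make-up. Total counts were 18556078 to 25797807 in wild type and 17495280 to 20523324 in knockout, while 22415 to 23400 genes had a count in wild type and 17716 to 18282 in knockout. Cytosolic ribosomal protein mRNAs took 8.4% ± 0.42 of the counts in wild type and 18.2% ± 0.31 in knockout (SD, n = 3), and the mean effective length of the counted transcripts went from 2490 ± 72.2 to 1487 ± 13.2 bases. Pearson's r of log2 CPM across genes was at least 0.988 within wild type, at least 0.98 within knockout and between 0.848 and 0.871 across the groups. Hepatocyte markers, all 8 tested, summed to 8850 to 9620 CPM in wild type and 15400 to 16200 CPM in knockout, but they did not move as one: APOA1, SERPINA1, TTR and AHSG were higher in knockout, and ALB, APOB, TF and FGB lower. Oncofetal hepatic markers, all 4 tested, summed to 1860 to 1980 and 752 to 798 CPM; AFP, GPC3 and IGF2 were lower in knockout and DLK1 higher. Of markers of other cell types, biliary ones (4 of 6 tested) summed to 430 to 454 and 1260 to 1370 CPM, most of it KRT19, with KRT7 at no more than 0.178 CPM. Leukocyte ones (2 of 6 tested, CD68 and LYZ) came to 43.7 to 50.3 and 72.3 to 80.3 CPM, CD68 being higher in knockout and LYZ lower, with PTPRC and CD3E at no more than 0.0735 CPM. Fibroblast and stellate ones (5 of 7 tested) came to 20.5 to 23.2 and 6.73 to 8.23 CPM. Most of the wild-type sum was COL1A2, which was lower in knockout, while PDGFRB overlapped between the groups. Endothelial ones (1 of 5 tested, PECAM1) came to 9.32 to 10 and 4.36 to 4.51 CPM with the untested ones included, and KDR was at 0 in all libraries. The sums of the other lists include untested markers as well. The part of these markers in the results was not tested.

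Most genes differed between the groups. Of 14226 genes tested, 11923 (83.8%) passed edgeR's quasi-likelihood test at a Benjamini-Hochberg adjusted p under 0.05; 5332 (37.5%) were higher and 6591 (46.3%) lower in knockout. The shares of 37.5% and 46.3% are the background for the counts with TMM scaling in each gene list below. For 12053 genes (84.7%) the CPM values of the groups did not overlap. A log2 change of at least 1 was reached by 3554 risen and 5221 fallen genes, and one of at least 2 by 816 risen and 2666 fallen genes. The direction followed transcript length. In the plot of fold change by effective length (deposited count divided by deposited TPM, scaled to bases), the median log2 fold change of the 1003 genes under 700 bases was 1.88, and 79.5% of them rose. The 952 genes of 7000 bases or more had a median of −2.34, and 93.3% fell. It also followed base composition, with a median of −1.89 under 40% GC and 0.87 at 60% GC or more. Both gradients were present within each other: among genes of 3000 to 4500 bases the median was −2.04 under 40% GC and 0.15 at 60% or more.

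**Figure D1:**
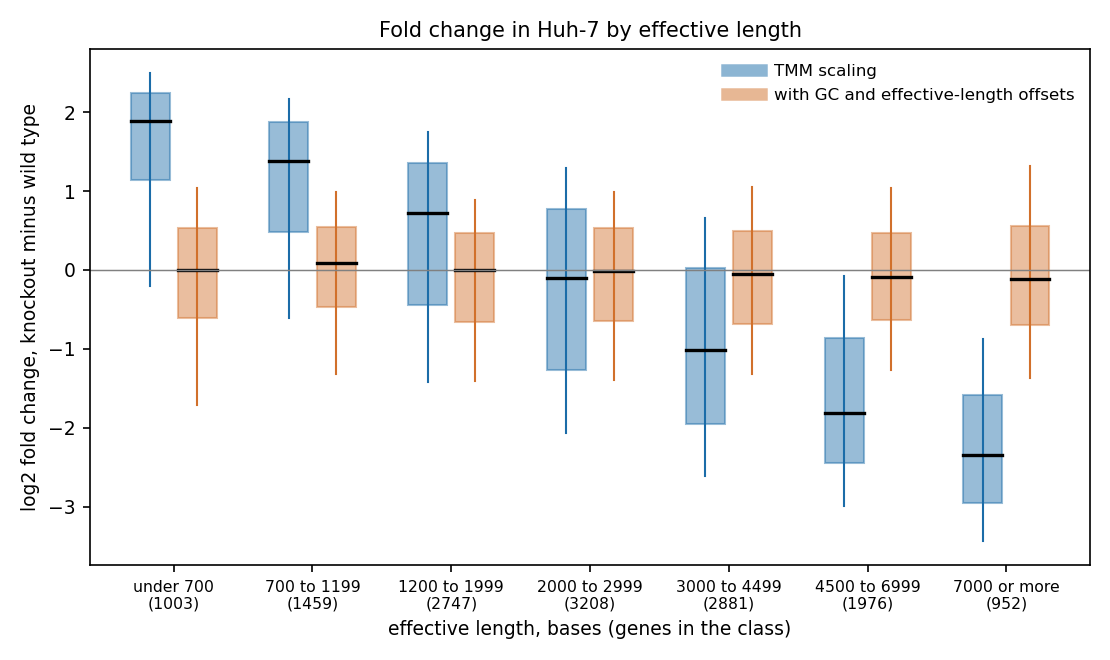
Log2 fold change (knockout minus wild type) of the 14226 tested genes by effective length in bases, with TMM scaling and with offsets for GC content and length. Boxes span the quartiles, black lines are medians and thin lines run from the 10th to the 90th percentile; with TMM scaling the median goes from 1.88 in the shortest class to −2.34 in the longest, and with offsets it lies between −0.11 and 0.10.

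A second value is therefore given for each gene, called the offset value, from a fit whose offsets remove the smooth trends on GC content and effective length in each library. In that fit 8770 genes (61.6%) passed, 4453 higher (31.3%) and 4317 lower (30.3%). The shares of 31.3% and 30.3% are the background for list counts with offsets. Both fits called 6459 genes with the same sign, 3209 higher and 3250 lower, and 1244 with opposite signs. The median absolute log2 fold change was 1.31 with TMM scaling and 0.57 with offsets. The offsets remove any change that follows length or GC content, whatever its source. For TRMT112 the offset value was 0.16 (SE 0.05, adjusted p = 0.0121). Effective length also differed between the groups within some genes, with median log2 ratios of 0.011 to 0.038 over the length classes. It was at least 10% shorter in knockout for 1.89% of genes under 700 bases and for 33.1% of those of 7000 bases or more, and at least 10% longer for 7.01% and 8.09% of them, among 5278 genes in all. For FN1 effective length was 4682 bases in wild type and 3125 in knockout, and for GAPDH 1327 and 1335. Scaling matters as well. With library totals in place of TMM factors the median gene moved by −1.18 on the log2 scale and the split became 2001 risen and 10110 fallen; on deposited TPM, likewise relative to the whole library, it was 844 and 11206. These 2 splits are the background for list counts under the same scalings, with 16.5% of calls risen with library totals and 7% on TPM. A gene that rose with TMM scaling by less than the shift of −1.18 can have a negative value under these scalings. On TPM some genes that rose by more, such as TTR and INSIG1, also had negative values. Such cases are stated below for the 140 genes fitted under other settings. DLK1, SERPINA1, AHSG and CD68 were not among these genes. RNA amount per cell cannot be told from these libraries, nor can fewer cells expressing a gene be told apart from less RNA per cell.

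Cytosolic ribosomal protein genes rose as a block. All 32 tested small-subunit genes and all 47 tested large-subunit genes were higher in knockout, with medians of 2.20 and 2.16 against −0.26 over all tested genes. These are short genes, with median effective lengths of 479 and 559 bases. All tested genes under 700 bases had a median of 1.88, and 79.5% of them rose. With offsets, 27 rose and 4 fell in the small subunit (median 0.47), and 36 rose and 4 fell in the large subunit (median 0.66). With library totals 29 rose and 2 fell, and 41 rose and 3 fell. On TPM 24 rose and 3 fell, and 33 rose and 7 fell. RPLP0, which anchors the stalk where elongation factors bind, went from 2999, 2724 and 2845 CPM in wild type to 17610, 17580 and 16600 CPM in knockout. Its TMM value was 2.60 (SE 0.06, adjusted p = 9.22e-17) and its offset value 1.20 (adjusted p = 1.12e-13). RPSA, a small-subunit protein also known as a laminin receptor precursor, stood at 2086, 2080 and 1925 CPM and then at 10890, 10970 and 10290 CPM. Its TMM value of 2.40 (adjusted p = 1.36e-16) was 1.81 with offsets. In both genes the knockout libraries lay together, far above the wild-type ones.

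Members of this block differed in how much of the change was left with offsets. RPS29 and RPS27 had TMM values of 2.81 and 2.76 and offset values of 0.77 and 0.57. For RPL35 the TMM value of 2.71 became 0.066, which did not pass (adjusted p = 0.211). RPL35A (2.64), RPL37 (2.40), RPLP1 (2.52) and RPL13A (2.33) had offset values of 1.58, 1.32, 1.31 and 0.82. RPL7 was the member with the smallest change among those named here, at 101, 115 and 89.1 CPM in wild type and 142, 115 and 137 CPM in knockout, so that the groups almost touched. Its TMM value of 0.37 (adjusted p = 0.00199) was 0.20 with the offsets for GC content and effective length, but −0.82 with library totals and −1.56 on TPM, and with upper-quartile factors it did not pass (0.23, adjusted p = 0.0513). Ribosomal protein genes have many processed pseudogenes, and how the authors' counting shared reads among them is not given in the sources used here.

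Vertebrate ribosomal protein mRNAs typically begin with a 5′ terminal oligopyrimidine (TOP) tract, a C followed by pyrimidines, through which mTOR and LARP1 control their translation. Because these mRNAs rose together, their RefSeq starts (GRCh38.p14) are shown beside those of other risen genes. The search was for a C followed by at least 5 letters that are each C or T, beginning within 5 bases of the start on the gene's own strand. Each window is 30 bases long, 10 before the start and 20 from it on, printed 5′ to 3′, with the run found in capitals. The first 6 genes hold such a run and the other 3, which also rose, do not.
RPLP0 (chr12:120201092-120201121, minus strand): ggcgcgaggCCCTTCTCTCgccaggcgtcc
RPSA (chr3:39406710-39406739, plus strand): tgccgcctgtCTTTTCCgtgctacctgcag
RPS27 (chr1:153990752-153990781, plus strand): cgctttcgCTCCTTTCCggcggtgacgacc
RPL13A (chr19:49487598-49487627, plus strand): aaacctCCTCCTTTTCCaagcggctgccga
RPLP1 (chr15:69452808-69452837, plus strand): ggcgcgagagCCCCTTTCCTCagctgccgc
TPT1 (chr13:45341164-45341193, minus strand): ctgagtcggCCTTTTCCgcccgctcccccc
RPS29 (chr14:49598691-49598720, minus strand): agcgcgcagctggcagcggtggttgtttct
FTL (chr19:48965299-48965328, plus strand): acgtcccctcgcagttcggcggtcccgcgg
COX7B (chrX:77899458-77899487, plus strand): aagccattttgtttttcagctcacttcaag

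The search took only genes with 1 entry in the promoter table, and it covered 7152 of the 12507 tested protein-coding genes. A run was found at the start of 45 of 53 cytosolic ribosomal protein genes so covered (84.9%) and 10 of 29 translation factors (34.5%). It was found in 829 of the 7152 genes (11.6%) and in 2416 of the 22114 promoters searched (10.9%). Ribosomal protein genes with and without a run had median TMM values of 2.20 and 2.14 and median offset values of 0.57 and 0.75. Translation factors with a run had a median of 0.33 and those without −0.75, or 0.23 and −0.053 with offsets. Among 7070 tested genes of neither list, the medians were −0.40 with a run and −0.38 without. In 649 of these with an effective length under 1000 bases they were 1.90 and 1.75, or 0.072 and 0.028 with offsets. A run is a match of letters at an annotated start, not a measured transcription start. TPT1, a growth-associated protein whose mRNA is a classical TOP mRNA, had 227, 243 and 186 CPM in wild type and 579, 544 and 534 CPM in knockout. Its TMM value was 1.34 (adjusted p = 4.72e-11) and its offset value 1.16. With library totals it was 0.15 and did not pass (adjusted p = 0.123), and on TPM it was −0.37. TPT1 overlaps TPT1-AS1 and snoRNA genes.

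Among called protein-coding genes of at least 10 CPM whose groups did not overlap, the largest rise with TMM scaling was that of ALYREF, an adaptor that hands mRNAs to the nuclear export receptor (chromosome 17, 81887844 to 81891586, minus strand). It stood at 7.68, 8.44 and 8.93 CPM in wild type and 383, 410 and 373 CPM in knockout. The TMM value was 5.54 (SE 0.09, adjusted p = 3.64e-19) and the offset value 3.92 (adjusted p = 4.04e-17). No other gene named here rose by as much, and all 3 knockout libraries shared the rise. ALYREF overlaps ANAPC11. CMC1, a copper-binding assembly factor of cytochrome c oxidase that overlaps AZI2, went from 1.153, 1.599 and 1.398 CPM to 19.5, 17.5 and 19.6 CPM, with a TMM value of 3.78 (SE 0.16, adjusted p = 4.13e-14) and an offset value of 3.25. FMC1, an assembly factor of ATP synthase that shares its locus with the readthrough annotation lost in knockout, rose by 2.87 (offset 1.93). Both peptide hormone genes among the largest rises were of low abundance. HAMP, which encodes the iron hormone hepcidin, went from 2.96, 3.45 and 3.23 CPM to 37.7, 36.0 and 33.8 CPM (3.48, offset 0.86). NPPB, which encodes a natriuretic peptide, rose by 3.33 (offset 1.26), the neuropeptide gene NMB by 2.84 (0.54), and ID3, an inhibitor of helix-loop-helix factors, by 2.68 (0.95).

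Several of the largest falls among genes of the same kind were in long mRNAs. SIN3A, the scaffold of a histone deacetylase complex, went from 19.1, 21.8 and 19.1 CPM to 0.294, 0.445 and 1.15 CPM, a TMM value of −4.996 (SE 0.24, adjusted p = 4.38e-13) and an offset value of −3.59. Without knockout replicate 3 the TMM value was −5.77. ARID1A, a DNA-binding subunit of the SWI/SNF remodelling complex, went from 46.5, 47.6 and 60.1 CPM to 2.94, 2.49 and 2.38 CPM (−4.29, offset −3.19). FN1, which encodes fibronectin, went from 1814, 1613 and 2271 CPM to 97.2, 90.7 and 103 CPM (−4.29, offset −2.89). In these 3 genes no knockout library came near a wild-type one. NMNAT3, an NAD-synthesising enzyme, had a TMM value of −5.80 (SE 0.52, adjusted p = 6.61e-05), from 25.96, 27 and 28.82 CPM to 1.25, 0 and 0.0821 CPM. Its value rests on few counts in knockout and was −9.15 without knockout replicate 1; the offset value was −4.12. PRRC2C, an RNA-binding protein of stress granules, fell by 5.06 (offset −2.36), and EP300, a histone acetyltransferase, had −4.66 (offset −2.47). RAPH1, an actin regulator at the leading edge, had −4.33 (offset −2.22), and HIPK2, a nuclear kinase, −4.22 (offset −2.20). SIN3A, ARID1A, NMNAT3, EP300 and RAPH1 each overlap another annotated gene.

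**Figure D2:**
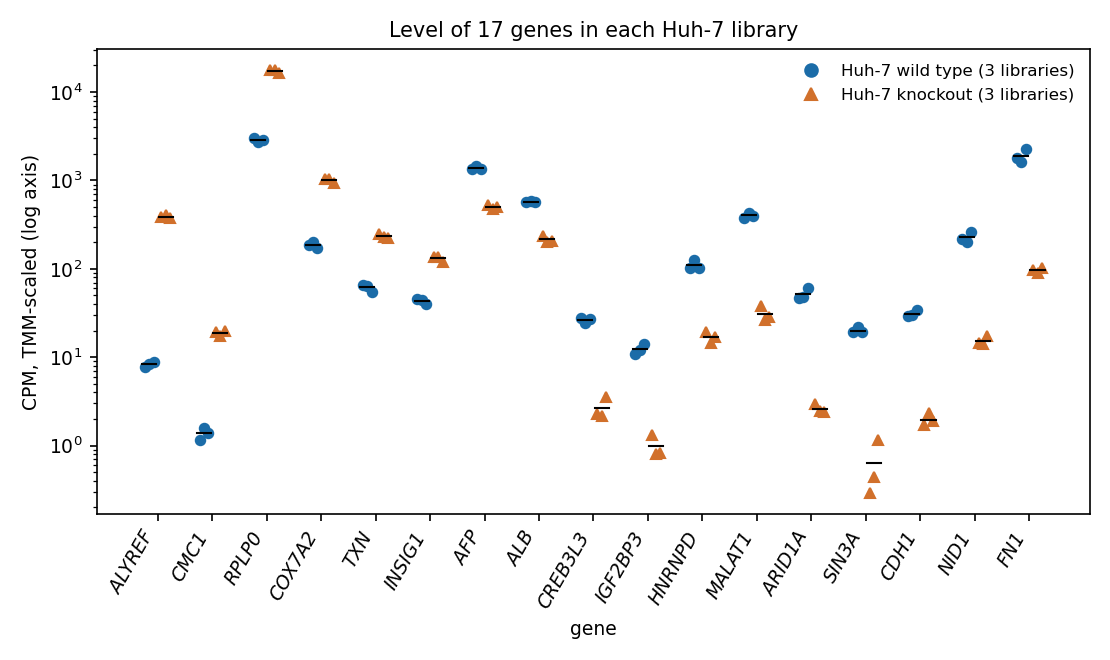
CPM after TMM scaling (log axis) of 17 genes in each of the 3 wild-type and 3 knockout Huh-7 libraries, 1 point per library, with the mean as a line. ALYREF lies at 7.68 to 8.93 CPM in wild type and 373 to 410 CPM in knockout, and FN1 at 1613 to 2271 CPM and 90.7 to 103 CPM.

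Some genes had as large a change with offsets as without. Among those that rose were NDUFA4 (TMM value 2.56, offset 3.66) and COX7B (2.46, offset 3.64), both subunits of cytochrome c oxidase, and MRPL57 (2.40, offset 2.96), a mitochondrial ribosomal protein. Their effective lengths of 2370, 2571 and 2644 bases are long for mRNAs of such small proteins, and an error in them would enlarge the offset value. Among those that fell was CREB3L3, a liver transcription factor of the fasting response (−3.32, offset −3.60). It went from 27.5, 24.5 and 27.4 CPM to 2.28, 2.14 and 3.53 CPM. TAF15, an RNA-binding protein of the FET family, had −3.21 (offset −3.26). For NEDD4, a ubiquitin ligase (−3.95, offset −3.95), and SRRM2, a scaffold of nuclear speckles (−3.28, offset −3.68), this rests on effective lengths of 1029 and 2432 bases. Their deposited lengths are 7235 and 9044 bases, and with offsets for GC content and deposited length the values were −1.63 and −2.21. Offset values were smaller than TMM values for the mitochondrial carrier gene SLC25A44 (−3.89, offset −3.21) and for PEG10. PEG10, an imprinted gene derived from a retrotransposon and often high in liver cancer, fell from 225, 231 and 255 CPM to 22.0, 19.8 and 20.7 CPM (−3.50, offset −2.83); it overlaps SGCE, and its effective length was 2912 bases in wild type and 1146 in knockout.

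Nuclear genes for mitochondrial proteins mostly rose. Of 77 tested genes for oxidative phosphorylation, 68 rose and 5 fell (median 1.75). Their median effective length was 683 bases and their median GC content 49%. All tested genes under 700 bases had a median of 1.88, and those of 45 to 50% GC among them 1.67. With offsets 47 rose and 14 fell (median 0.34). Library totals gave 57 and 13, and TPM 35 and 20. COX7A2, a subunit of cytochrome c oxidase, went from 189, 199 and 170 CPM to 1039, 1030 and 932 CPM (2.43, offset 1.73). COX6A1 of the same complex rose by 2.50 (offset 0.98), and ATP5MG, a membrane subunit of ATP synthase, by 2.32 (offset 2.30). Of 78 mitochondrial ribosomal protein genes, with a median effective length of 1092 bases, 61 rose and 12 fell (median 1.56). All tested genes of 700 to 1200 bases had a median of 1.38, and those of 50 to 55% GC among them 1.55. The mitochondrial ribosomal list had a median GC content of 50.3%. With offsets 48 rose and 10 fell (median 0.34). On TPM 19 rose and 33 fell, where over all tested genes 844 rose and 11206 fell. MRPS9, one of those that fell, had −2.22 (offset −2.03). Of 13 mRNAs encoded by mitochondrial DNA 9 rose and 3 fell with TMM scaling (median 0.76), and 5 rose and 2 fell with both offsets, but 3 rose and 9 fell with library totals. MT-CO1, the catalytic subunit of cytochrome c oxidase, had a TMM value of 1.03 and an offset value of 1.15, yet −0.15 with library totals and −0.69 on TPM. MT-ND6, the one mRNA read from the light strand, had −0.63 (offset −1.53).

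The m6A machinery of mRNA mostly fell. Of 21 writers, erasers and readers tested, 4 rose (19%) and 17 fell (81%), with a median of −1.94. Over all tested genes 37.5% rose and 46.3% fell. The list had a median effective length of 3475 bases and a median GC content of 46.8%. All tested genes of 3000 to 4500 bases and 45 to 50% GC had a median of −1.54. With offsets 5 members rose and 13 fell (median −0.48). With library totals all 21 fell. The writer METTL3 and the eraser ALKBH5 were among the risen. METTL3 stood at 24.3, 23.0 and 19.6 CPM in wild type and 35.57, 37.63 and 39.98 CPM in knockout (0.76, offset 0.79), and was −0.43 with library totals and −0.87 on TPM. ALKBH5 had 0.57 (offset 0.86), and −0.62 and −1.11 under the same 2 scalings. The readers gave the largest falls. IGF2BP3, an oncofetal reader that stabilises its targets, went from 10.92, 12.04 and 13.94 CPM to 1.32, 0.801 and 0.821 CPM (−3.62, offset −1.91). IGF2BP2 fell by 2.92 (offset −1.78), HNRNPA2B1, a nuclear reader, by 2.78 (offset −1.84), and YTHDF2, a cytoplasmic reader that recruits mRNA decay, by 2.16 (offset −1.498). Other rRNA methyltransferases and METTL5 partners, a list of 13 that counts METTL5, divided evenly: 7 rose and 6 fell, 5 and 3 with offsets, and 5 and 7 with library totals. EMG1, which modifies a pseudouridine of 18S rRNA, rose by 1.61 (offset 1.39). THUMPD3, a TRMT112-dependent tRNA methyltransferase, fell by 2.68 (offset −1.90). ZCCHC4, the m6A enzyme of 28S rRNA, had −1.62 and an offset value of −0.22 that did not pass (adjusted p = 0.366).

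Genes that build ribosomes did not rise with the ribosomal proteins. Of 62 ribosome biogenesis factors tested, 17 rose and 43 fell (median −1.22), and with offsets 20 rose and 26 fell (median −0.16). Their median effective length was 2574 bases, against 479 and 559 for the small-subunit and large-subunit lists. All tested genes of 2000 to 3000 bases had a median of −0.097 with TMM scaling, and those of 45 to 50% GC among them −0.75. The biogenesis list had a median GC content of 47%. NCL, the nucleolar protein nucleolin, went from 220, 279 and 214 CPM to 36.4, 26.2 and 31.2 CPM (−2.92, offset −1.83). LTV1, needed for export of the small subunit, fell by 2.77 (offset −1.92), NOLC1, a nucleolar phosphoprotein, by 2.67 (−1.74), NOP58, a core protein of box C/D snoRNPs, by 2.37 (−1.71), and DKC1, the pseudouridine synthase of box H/ACA snoRNPs, by 2.19 (−1.59). Other proteins of the DKC1 particle had positive values: NOP10 rose by 2.30 (offset 1.02), and NHP2 had 2.13 and an offset value of 0.098 that did not pass (adjusted p = 0.0658). Of 48 translation factors 19 rose (39.6%) and 26 fell (54.2%), with a median of −0.52. These shares are near the 37.5% and 46.3% of all tested genes. With offsets 20 rose and 20 fell (median −0.006), and with library totals 8 rose and 36 fell. EEF1G, a subunit of the exchange factor of elongation, rose by 2.12 (offset 1.11). EIF4EBP1, the mTOR-controlled repressor of cap binding, had 2.08 but 0.024 with offsets (adjusted p = 0.713). EIF3A, the largest initiation factor subunit, fell by 3.33 (offset −0.88), and PABPC1, the poly(A)-binding protein, by 2.50 (offset −2.17).

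Genes of large regulatory and structural proteins fell. All 37 chromatin regulators tested were lower (median −2.68), and with offsets 27 fell and 4 rose (median −0.80). Besides SIN3A, ARID1A and EP300 they included KMT2D, a histone H3 methyltransferase (−3.63, offset −2.56), CREBBP, the paralog of EP300 (−3.79, offset −1.72), and EP400, a remodelling ATPase (−3.33, offset −1.91). All 20 PI3K-related and large signalling kinases fell (median −2.76), and 12 of them with offsets (median −0.49); PRKDC, the DNA-dependent protein kinase, had −3.65 (offset −0.91) and MTOR −2.74 (offset −0.77). All 19 large cytoskeletal proteins fell (median −2.40), with 15 lower and 1 higher under offsets (median −0.75). PLEC, the linker plectin, had −3.49 (offset −1.89) and MYH9, a nonmuscle myosin heavy chain, −3.05 (offset −1.78). These 3 lists are made of long genes, with median effective lengths of 6885, 7712 and 9172 bases in the order given. Their median GC contents were 48.9%, 44.1% and 53.5%. All tested genes of 4500 to 7000 bases and 45 to 50% GC had a median of −1.96. Those of 7000 bases or more had −2.34, with −2.64 at 40 to 45% GC and −2.05 at 50 to 55% GC.

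Extracellular matrix and basement membrane genes fell with offsets as well. Of 29 tested, 25 fell and 2 rose (median −2.08), and with offsets 20 fell and 1 rose (median −0.96). NID1, which links laminin and collagen in the basement membrane, went from 218, 200 and 264 CPM to 14.4, 13.97 and 17.57 CPM (−3.89, offset −2.32). LAMB1, a laminin chain, fell by 3.29 (offset −2.37) and FBN1, fibrillin, by 3.66 (offset −1.497). Fibroblast and stellate markers, of which 5 of 7 were tested, had a lower sum in knockout, and their part was not tested. They did not all fall: PDGFRB had 3.75, 2.41 and 4.59 CPM in wild type and 3.09, 3.74 and 3.04 CPM in knockout. CDH1, the epithelial cadherin of adherens junctions, went from 28.9, 30.1 and 33.8 CPM to 1.69, 2.31 and 1.89 CPM (−3.98, offset −2.70). The keratins KRT18 and KRT19 went the other way, with 1.87 each (offset 0.66 and 0.55). The epithelial list as a whole had 13 risen and 10 fallen of 24 (9 and 6 with offsets), but 5 and 14 with library totals, and 9 risen without wild-type replicate 2.

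**Figure D3:**
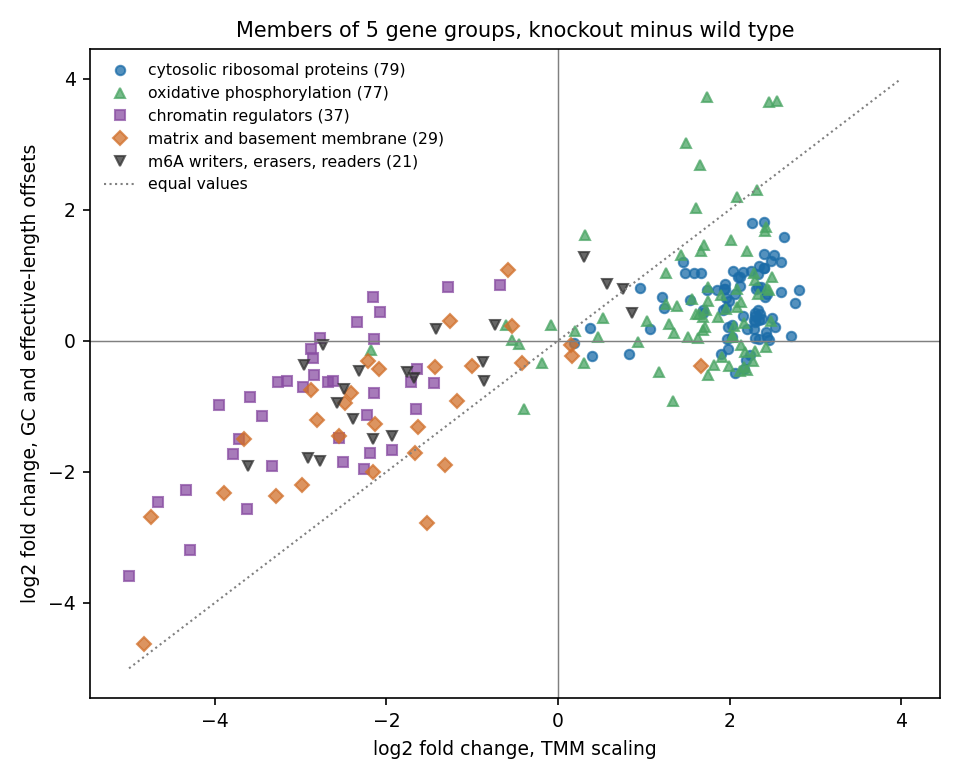
Log2 fold change (knockout minus wild type) of each tested member of 5 gene groups, with TMM scaling on the x axis and with offsets for GC content and effective length on the y axis, 1 point per gene; the dotted line marks equal values. With TMM scaling all 79 cytosolic ribosomal protein genes lie above 0 and all 37 chromatin regulators below 0, and with offsets both groups hold genes of either sign.

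Hepatocyte genes split. Of 34 genes for secreted plasma proteins, 17 rose and 15 fell with TMM scaling (median 0.30), while 5 rose and 20 fell with offsets (median −0.40) and 6 rose and 26 fell with library totals. ALB, albumin, went from 567.6, 592.7 and 564.4 CPM to 235, 204 and 207 CPM (−1.42, SE 0.07, adjusted p = 3.33e-13; offset −0.54). AFP, its fetal counterpart and a liver cancer marker, went from 1339, 1468 and 1333 CPM to 524, 481 and 496 CPM (−1.46, SE 0.06, adjusted p = 6.78e-14; offset −1.01). The knockout libraries held less than the wild-type ones of both. The fibrinogen chains FGA and FGB fell by 1.57 and 1.61 (offset −0.67 and −0.84), complement C3 by 1.603 (offset −2.15) and coagulation factor F5 by 3.70 (offset −1.68). TTR, the thyroid hormone carrier transthyretin, rose by 1.85 (offset 1.11) and was −0.022 on TPM. APOA1, the main protein of high-density lipoprotein, had 1.42 but an offset value of −0.36, and APOB, the scaffold of low-density lipoprotein, fell by 4.16 (offset −1.11). The oncofetal genes IGF2 and GPC3 fell by 2.12 and 1.04 (offset −1.49 and −0.65), while DLK1, another oncofetal gene, went from 56.3, 45.2 and 51.7 CPM to 103, 104 and 100 CPM, with a TMM value of 1.01 and an offset value of −0.27. Of 26 hepatocyte transcription factors 6 rose and 16 fell (median −0.75), and 6 and 15 with offsets (median −0.44). The pioneer factor FOXA1 fell by 1.495 (offset −1.42), GATA6 by 1.57 (−1.25) and PROX1, a factor of early liver growth, by 3.87 (−1.54).

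Genes of cholesterol synthesis were mixed with TMM scaling, 12 risen and 11 fallen of 26 (median 0.01), and mostly higher with offsets, 15 risen and 3 fallen (median 0.37), but library totals gave 9 and 15 and TPM 1 and 23. INSIG1, the sterol-sensing brake on SREBP processing, went from 45.9, 44.8 and 40.2 CPM to 137, 135 and 120 CPM (1.59, offset 1.76), with a value of −0.001 on TPM. FDPS, an enzyme of the isoprenoid branch point, rose by 1.79 (offset 0.42). SQLE, squalene epoxidase, fell by 1.81 (offset −0.45). In fatty acid synthesis 11 of 26 rose (42.3%) and 14 fell (53.8%), shares near the 37.5% and 46.3% of all tested genes. With offsets the counts were 12 and 8, and with library totals 5 and 17. FASN, fatty acid synthase, went from 927, 752 and 1087 CPM to 187, 204 and 201 CPM (−2.22, offset −1.78). Under the 21 other settings described below its value lay between −3.44 and −0.415. ACSL3, which activates fatty acids at lipid droplets, fell by 2.46 (offset −0.82), and GPAM, the first enzyme of triglyceride assembly, by 3.41 (offset −0.80). Triglyceride and lipoprotein genes rose in 19 and fell in 8 of 32 cases with TMM scaling, but in 10 and 13 with offsets and in 7 and 19 with library totals. The small apolipoproteins APOC1 and APOM had 2.48 and 2.16 (offset 0.14 and 0.59). Of 33 genes of beta-oxidation 14 rose (42.4%) and 15 fell (45.5%), again near the shares of all tested genes. With offsets the counts were 12 and 13, but with library totals 4 and 22, and on TPM 30 fell.

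The split of antioxidant and iron genes into risen and fallen depended on the scaling, as it did over all tested genes. Of 36 tested, 23 rose and 13 fell with TMM scaling (median 1.12), and 25 rose and 4 fell with offsets (median 0.32), but 15 rose and 17 fell with library totals and 8 rose and 26 fell on TPM. FTL, the light chain of the iron store ferritin, went from 14580, 14300 and 14300 CPM to 88270, 91450 and 84240 CPM (2.61, SE 0.06, adjusted p = 4.79e-17; offset 0.80). It took 2.17% ± 0.026 of all counts in wild type and 5.83% ± 0.068 in knockout (SD, n = 3). TXN, thioredoxin, went from 65.9, 64.7 and 54.3 CPM to 245, 232 and 224 CPM (1.92, offset 1.46). The selenoprotein peroxidases GPX1 and GPX4 rose by 2.30 and 2.29 (offset 0.34 and 0.17). NFE2L2, the transcription factor that drives many of these genes, fell by 2.10 (offset −1.10). Metallothionein genes and their regulators, 9 tested, had 7 risen and 2 fallen with TMM scaling and 1 risen and 6 fallen with offsets. MT2A, a metallothionein with an effective length of 191 bases, had 1.38 and −1.22.

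Among protein-folding genes, 16 of 28 chaperonin and heat shock genes fell (57.1%) and 11 rose (39.3%; median −0.79), shares near the 46.3% and 37.5% of all tested genes, and 16 fell and 7 rose with offsets (median −0.31). HSPD1, the mitochondrial chaperonin, fell by 2.40 (offset −1.73), the cytosolic chaperonin subunit TCP1 by 2.12 (−1.52) and HSPA4 by 3.01 (−0.98). Of 28 genes of the unfolded protein response 18 fell and 9 rose, or 12 and 8 with offsets. The endoplasmic reticulum chaperones HSPA5 and HSP90B1 had −3.01 and −3.099 (offset −1.25 and −1.73), while SEC61B, a small subunit of the translocation channel, rose by 2.22 (offset 0.79). Of 39 genes of the integrated stress response 17 rose (43.6%) and 17 fell (43.6%), shares also near those of all tested genes. With offsets the counts were 16 and 8, and with library totals 5 and 28. GARS1, the glycyl-tRNA synthetase, fell by 1.92 (offset −1.89). Of 37 proteasome subunits 23 rose and 11 fell (20 and 12 with offsets), but 10 and 21 with library totals and 7 and 28 on TPM. The core subunits PSMB7 and PSMB4 rose by 2.06 and 1.96 (offset 1.32 and 1.00), and PSMD1, a large subunit of the regulatory particle, fell by 2.87 (offset −1.30).

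Cell cycle genes mostly fell with TMM scaling, and with offsets the counts of risen and fallen genes lay closer together. Of 47 mitosis genes 33 fell and 9 rose (median −1.40), or 14 and 11 with offsets (median −0.12). Over all tested genes 30.3% fell and 31.3% rose with offsets. The mitosis list had a median effective length of 3293 bases and a median GC content of 42.4%. All tested genes of 3000 to 4500 bases and 40 to 45% GC had a median of −1.93 with TMM scaling. MKI67, the proliferation antigen, went from 111, 138 and 116 CPM to 15.95, 15.57 and 14.78 CPM, a TMM value of −2.98. Its offset value was −0.14 and did not pass (adjusted p = 0.176). The condensin subunits SMC4 and NCAPG fell by 3.38 and 3.30 (offset −1.55 and −1.06). Of 49 replication genes 31 fell and 10 rose, or 20 and 15 with offsets. RRM1 of ribonucleotide reductase fell by 2.73 (offset −1.22) and MCM10 by 3.33 (−1.70), while RPA3, the smallest subunit of replication protein A, rose by 2.28 (offset 1.93). Replication-dependent histone genes, which are short, rose in 35 of 38 cases, while 10 rose and 5 fell with offsets and 13 rose and 8 fell by limma on TPM.

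Of 47 splicing factors 19 rose (40.4%) and 24 fell (51.1%; median −0.45), shares near those of all tested genes, or 18 and 22 with offsets (median −0.11). The small ring protein SNRPG rose by 2.36 (offset 1.69). HNRNPD, which binds AU-rich elements, went from 103, 125 and 103 CPM to 19.18, 14.5 and 16.99 CPM (−2.70, offset −2.93). HNRNPM fell by 2.39 (offset −2.68) and HNRNPH1 by 2.40 (offset −2.49). Of 36 genes of nuclear import and export 31 fell and 5 rose (median −1.87), but 8 fell and 12 rose with offsets (median 0.01); KPNB1, an importin, fell by 3.16 (offset −2.08). Of 23 snoRNA host and nuclear long noncoding RNAs 15 rose and 5 fell in each fit (median 1.49, offset 0.47). In both fits 12 rose and 4 fell. On TPM 6 rose and 8 fell, and with an offset for effective length alone 8 rose and 7 fell. GAS5, a snoRNA host gene whose RNA carries a TOP start, rose by 2.19 (offset 1.42). MALAT1 and NEAT1, which stay in the nucleus, fell: MALAT1 went from 381, 429 and 397 CPM to 38.4, 26.4 and 28.6 CPM (−3.69, offset −2.69), and NEAT1 fell by 3.94 (offset −1.63).

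**Figure D4:**
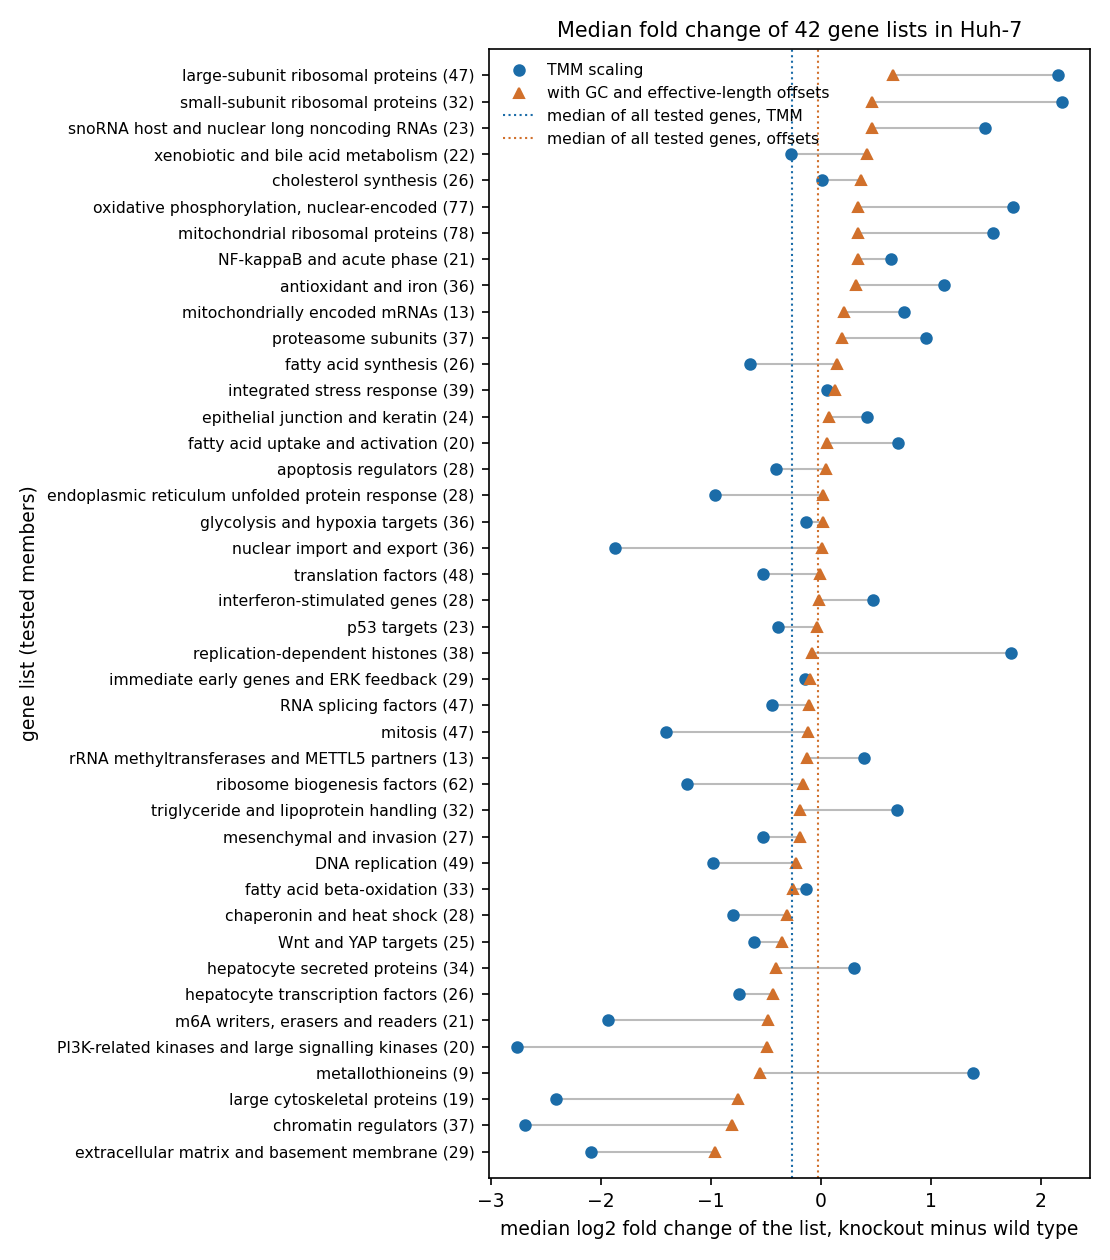
Median log2 fold change (knockout minus wild type, x axis) of 42 gene lists (y axis, tested members in brackets), with TMM scaling as circles and with offsets for GC content and effective length as triangles; dotted lines mark the medians of all tested genes. Both ribosomal protein lists have positive medians and the chromatin and matrix lists negative ones in both fits, while the list of nuclear import and export moves from −1.87 to 0.01.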

How the data were processed

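Total RNA (TRIzol, 1 µg) was sequenced on a NovaSeq 6000, per the labels' protocols. The authors deposited expected counts (many are not whole), TPM and a gene length per gene in 1 table; 6 of its 12 libraries were used. The submitters' processing notes list Bowtie 0.12.2 with mm8 and mm9, mouse builds that do not go with the human Ensembl identifiers; the counter, the strand setting, a human build and an annotation release were not given in the sources used here. GENCODE 29 (GRCh38) gave GC content and positions for 58611 of 58884 identifiers (99.54%).

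Expected counts were rounded and fitted with edgeR 4.0.16 in R 4.3.3 (TMM, filterByExpr, robust quasi-likelihood, 4 residual degrees of freedom, Benjamini-Hochberg over 14226 genes); all p-values of the report come from it unless limma 3.58.1 or DESeq2 1.42.0 is named. An exact permutation test of 3 against 3 libraries cannot go below 0.1, so it was not used. Effective length is the deposited expected count divided by deposited TPM, scaled; it was added after seeing the data, because the deposited length is often not that of the expressed transcript (POLR2A: 2083 deposited, 8328 effective in wild type). Offsets are splines (6 degrees of freedom) per library. limma was run on log2(TPM + 1), whose changes understate those of low genes. Depth is given in the report, and with few counts in knockout a fold change is imprecise. The scripts were tested on simulated counts.

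Members and lists were chosen with earlier results of these data known. Named genes are METTL5, TRMT112, the 12 largest rises and falls among called protein-coding genes of at least 10 CPM whose groups did not overlap, the same with offsets for GC and deposited length (same sign in both fits), the 20 largest each way with GC and effective length (added after seeing the data), and up to 3 risen and 3 fallen members of each list at 5 CPM or more; some that the rule takes are left out. Genes outside it, chosen after their values were seen, are YTHDF2, ZCCHC4, RPSA, RPL7, RPLP1, LTV1, NOP58, DKC1, TPT1, PABPC1, RPL13A, COX7A2, ATP5MG, MRPS9, MT-CO1, FBN1, CREBBP, MYH9, MTOR, EP400, ALB, AFP, APOA1, FGA, C3, FOXA1, GATA6, GPC3, GPX4, TXN, MT2A, HNRNPH1, PSMB4, TCP1, ID3 and DLK1.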

Additional observations from a re-analysis of the deposited data

How the results depend on the processing

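Of 140 genes examined under 21 alternatives, 131 had the same direction in all and 9 reversed in at least 1. The size of a change could vary widely where its direction did not. Over the alternatives the value nearest 0 was −0.415 for FASN, −0.374 for C3, −0.722 for PLEC, −1.109 for KMT2D and −0.359 for GATA6. DLK1, whose TMM and offset values differ in sign as given above, was not among the 140. With library totals the genes risen and fallen were 2001 and 10110 (16.5% of calls risen), and with limma on log2(TPM + 1) 844 and 11206 (7%). Fallen genes were 4317 with offsets for GC and effective length and 4056 with the replicate block added, and 4368 with the replicate block and offsets for GC and deposited length. Requiring a log2 change of at least 1 left 3554 risen. The trend of fold change with gene length and GC content, taken as the median of the shortest class minus that of the longest, was 4.23 with TMM scaling, 1.43 on TPM, 1.27 with no filter on low counts, 1.13 with an offset for deposited length, 0.96 with GC and deposited length (0.98 with the replicate block), 0.28 with effective length, and 0.11 with GC and effective length, with or without the replicate block. The METTL5 bound was 63.3 with library totals. Leaving out single libraries gave 11549 to 11865 genes called, 5099 to 5254 risen and 6450 to 6644 fallen, a trend of 4.13 to 4.27 and a METTL5 bound of 25.1 to 29.2. DESeq2 called 11353 genes and limma-voom 11833.

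Reversed values were, with library totals, METTL3 −0.43, ALKBH5 −0.62, RPL7 −0.82 and MT-CO1 −0.15. On TPM they were METTL3 −0.87, ALKBH5 −1.11, RPL7 −1.56, TPT1 −0.37, MT-CO1 −0.69, TTR −0.022, APOA1 −0.29, INSIG1 −0.001 and MT2A −0.30. With an offset for deposited length they were RPL7 −0.62 and MT2A −0.17, and with one for effective length RPL7 −0.77 and MT2A −0.72. With GC and deposited length APOA1 had −0.45 and MT2A −0.59 (replicate block: −0.44 and −0.58); with GC and effective length they had −0.36 and −1.22 (replicate block: −0.35 and −1.22). The cause was not tested.

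Same-numbered libraries of the groups had correlations of −0.098, −0.041 and 0.133 over 6031 genes, and differently numbered ones −0.118 to 0.16. These values show no pairing by number, but with 3 libraries per group they cannot settle whether the numbers mark shared cultures. The replicate block called 11628 genes, 5189 risen and 6439 fallen. Replicates differed by more than sampling noise (chi-square per degree of freedom 2.85 to 17). Limits are the 3 libraries per group, the unknown counting and strand setting, and few counts of long genes in knockout.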

Other observations

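In several signalling and metabolic lists the balance depended on the scaling, as it did over all tested genes. Of 36 glycolysis and hypoxia genes 15 rose and 12 fell, or 13 and 13 with offsets for GC content and effective length, but 2 and 26 with library totals and 1 and 34 on TPM. GAPDH, a glycolytic enzyme often used as a reference, rose by 1.88 (offset 0.48), and HIF1A, the oxygen-sensitive transcription factor, fell by 2.61 (offset −0.57). Of 23 p53 targets 10 rose (43.5%) and 11 fell (47.8%), near the 37.5% and 46.3% of all tested genes. With offsets the counts were 10 and 6, with library totals 5 and 15, and on TPM 2 and 16. Of 28 apoptosis regulators 12 rose (42.9%) and 14 fell (50%). Their other counts were 12 and 7, 7 and 16, and 2 and 21 in the same order. Of 28 interferon-stimulated genes 15 rose and 12 fell, with offsets 4 and 3, with library totals 6 and 15, and on TPM 2 and 20. Among 21 NF-kappaB or acute phase genes there were 11 that rose and 5 that fell (8 and 3 with offsets), while library totals gave 4 and 9 and TPM 2 and 15, and the median of 0.64 was 0.19 without knockout replicate 2. IER3, an early response gene, rose by 2.02 (offset 0.59).

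Of 22 genes of xenobiotic and bile acid metabolism 9 rose (40.9%) and 10 fell (45.5%), near the 37.5% and 46.3% of all tested genes. With offsets 12 rose and 5 fell, but the counts were 5 and 13 with library totals and 4 and 17 on TPM. GSTM3, a glutathione transferase, went from 55.2, 55.4 and 48.4 CPM to 227, 220 and 219 CPM (2.07, offset 0.87). ABCB1, the multidrug efflux pump, went from 9.35, 10.9 and 7.99 CPM to 0.882, 0.267 and 0.985 CPM (−3.68, offset −1.89). Of 25 Wnt and YAP targets 9 rose (36%) and 14 fell (56%), 6 and 12 with offsets, and 1 and 22 with library totals. In the list for mesenchyme and invasion, with 27 tested, 7 rose and 15 fell, 5 and 12 with offsets, and 2 and 24 with library totals. THBS1, a matrix glycoprotein, fell by 2.75 (offset −0.99).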
